A study of Mus musculus with 4 samples.

Results

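Transcription factor genes of effector T cells, Tbx21, Eomes, Prdm1 and Bhlhe40, were followed through single T cells of tumor and lymph node from mice carrying B16F10 melanoma, a transplantable mouse skin tumor line. They were chosen by name, as the rows of these 4 genes among the 14721 genes of the deposited table, and all 4 were found there. Gene expression had been read with a 10x Genomics 5′ kit, which counts unique molecular identifiers (UMIs), each standing for 1 captured transcript. There was 1 RNA library per tissue, so no value has a replicate, and cells of a library are not replicates of a condition.

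Per the labels, mice with established tumors received cyclophosphamide once at 250 mg/kg and then purified TRP1 CD4 T cells, whose transgenic receptor recognises a melanocyte protein. Tumors were taken 11 days after transfer, and the transferred cells, marked by CD45.1, were sorted as CD4+ and CD4+CD8+ cells. The strain is given as RAG1- BW TRP-1 TCR for every sample, and the treatment field reads untreated for all. The labels of the lymph node samples carry the same tumor texts, while their titles name endogenous lymph node cells. The labels name no number of animals, and whether animals were pooled is likewise not given in the sources used here. The groups below use the cell label that the authors deposited for each cell: in tumor 2693 Tdp, 406 Tcell and 2451 Cd4 cells, and in lymph node 2788 Cd8, 321 Treg and 1873 Cd4 cells. What Tdp stands for, and by which rule cells got their label, was not given in the sources used here. Further labels held 19 tumor Treg, 6 lymph node Tdp and 1 tumor Cd8 cell.

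The transgenic chains were defined from these data, as the alpha and the beta receptor sequence (CDR3) found in the most tumor cells, and either was enough. Such a chain was present in each of the 5540 tumor cells and in none of the 4769 lymph node cells for which a receptor is given. Tissue and origin of the cells thus cannot be told apart. The tumor library held 33147030 UMIs in 5570 cells and the lymph node library 29067001 UMIs in 4988 cells. Median UMIs per cell ranged across the groups between 4763 and 6633, except for 2040 in the tumor Tcell group. Cd3e was detected in 92.4% to 99.9% of the cells of each group. Cd8a reached 751 CPM in tumor Tdp and 509 CPM in lymph node Cd8 cells, against 17.5 and 7.56 CPM in the Cd4-labelled cells of tumor and of lymph node. Foxp3 stood at 394 CPM in lymph node Treg cells, where Cd8a was also found in 17.1% of cells. Natural killer cell markers summed to 4.65 CPM or less in every group and Ncr1 was at 0 in the tumor groups; B cell, macrophage, dendritic and melanoma markers summed to 31.0, 3.56, 0.164 and 1.19 CPM at most. A set of 36 cell barcodes occurred in both libraries, and leaving them out changed no sign and no count of called members.

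Tbx21 encodes T-bet, the T-box factor that drives the type 1 helper programme and works with Eomes in CD8 T cells. Eomes encodes Eomesodermin, a second T-box factor, known for cytotoxic genes and for memory CD8 cells. Prdm1 encodes Blimp1, a zinc finger repressor of effector and regulatory T cells, known to act on genes of the naive and memory states and on coinhibitory receptors. Bhlhe40 encodes a basic helix-loop-helix repressor induced by receptor signals, known in helper T cells for sustaining cytokines such as GM-CSF and for restraining Il10.

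On GRCm38.p6 Tbx21 lies at chr11:97098007-97115331, Eomes at chr9:118478186-118486132, Prdm1 at chr10:44437174-44528558 and Bhlhe40 at chr6:108660629-108666925. The 250 bases before the start that the table gives are shown for the 3 genes that RefSeq's promoter table for GRCm38.p6 holds, because the 2 T-box genes differ there in base composition. Each runs 5′ to 3′ on the gene's strand, and capitals mark GC boxes and CCAAT boxes on either strand, motifs picked after the sequences had been read.
Tbx21, chr11:97115332-97115581, minus strand: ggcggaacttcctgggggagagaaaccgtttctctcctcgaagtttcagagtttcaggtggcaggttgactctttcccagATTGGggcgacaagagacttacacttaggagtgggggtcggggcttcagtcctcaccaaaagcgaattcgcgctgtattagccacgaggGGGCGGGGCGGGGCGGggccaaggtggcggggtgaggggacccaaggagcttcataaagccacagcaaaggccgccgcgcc
Eomes, chr9:118477939-118478188, plus strand: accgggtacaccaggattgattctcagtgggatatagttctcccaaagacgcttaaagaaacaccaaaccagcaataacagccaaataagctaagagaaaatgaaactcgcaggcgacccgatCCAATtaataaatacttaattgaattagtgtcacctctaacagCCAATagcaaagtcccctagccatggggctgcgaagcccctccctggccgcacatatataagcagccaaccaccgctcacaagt
Prdm1, chr10:44458749-44458998, minus strand: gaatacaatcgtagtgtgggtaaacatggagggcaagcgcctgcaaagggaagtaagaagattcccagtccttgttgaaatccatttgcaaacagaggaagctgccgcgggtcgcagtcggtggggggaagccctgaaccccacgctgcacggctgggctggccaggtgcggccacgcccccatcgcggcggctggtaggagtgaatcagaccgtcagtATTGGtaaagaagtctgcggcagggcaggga
The Prdm1 window lies inside the span of the gene given above, while those of the 2 T-box genes lie at the outer end of theirs. The Tbx21 window held 3 overlapping GC boxes (GGGCGG) and 1 CCAAT box, at a GC content of 60.8%. The Eomes window held 2 CCAAT boxes at a GC content of 46.4%, and the Prdm1 window 1 CCAAT box at 59.2%, against a median of 52.4% over all 32851 promoters of the table. Letters GGGCGG occurred in 32.7% of those promoters and CCAAT in 33.8%, on either strand. The letters TCACACC of a T-box site (3.33% of promoters), CACGTG of an E-box (6.02%), TGTGGT of a RUNX site (14.0%), GAAAGTG of a Blimp1 site (4.01%) and TATAAA (12.4%) were not in these 3 windows.

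Tbx21 was found mainly in the tumor groups. UMIs were summed over the cells of a group and scaled to the total of the group (CPM), with exact 95% Poisson intervals, and these and all other intervals cover counting error only. Tbx21 stood at 180 CPM (95% interval 174 to 186) in tumor Tdp, 126 (103 to 152) in tumor Tcell and 172 (165 to 179) in tumor Cd4 cells. In lymph node it stood at 16.8 CPM (14.9 to 18.8) in Cd8, 8.40 (4.80 to 13.6) in Treg and 1.22 (0.611 to 2.19) in Cd4 cells. The intervals of tumor and lymph node groups did not overlap, and of the neighbours in this order only tumor Tdp and tumor Cd4 did not differ beyond counting error. A Tbx21 UMI was found in 62.2% of tumor Tdp cells and 55.8% of tumor Cd4 cells, at median depths of 6633 and 5533 UMIs, against 0.427% of lymph node Cd4 cells (0.185% to 0.840%) at a median of 4763. With every cell thinned to 2000 UMIs and shallower cells left out, 257 in tumor and 100 in lymph node, these shares were 29.4%, 27.4% and 0.110%. In single cells the median was 1 UMI of Tbx21 in both tumor groups, and 32.6% of Tdp and 24.2% of Cd4 cells held 2 or more, so a tumor cell without a Tbx21 UMI is not shown to lack the transcript.

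**Figure D1:**
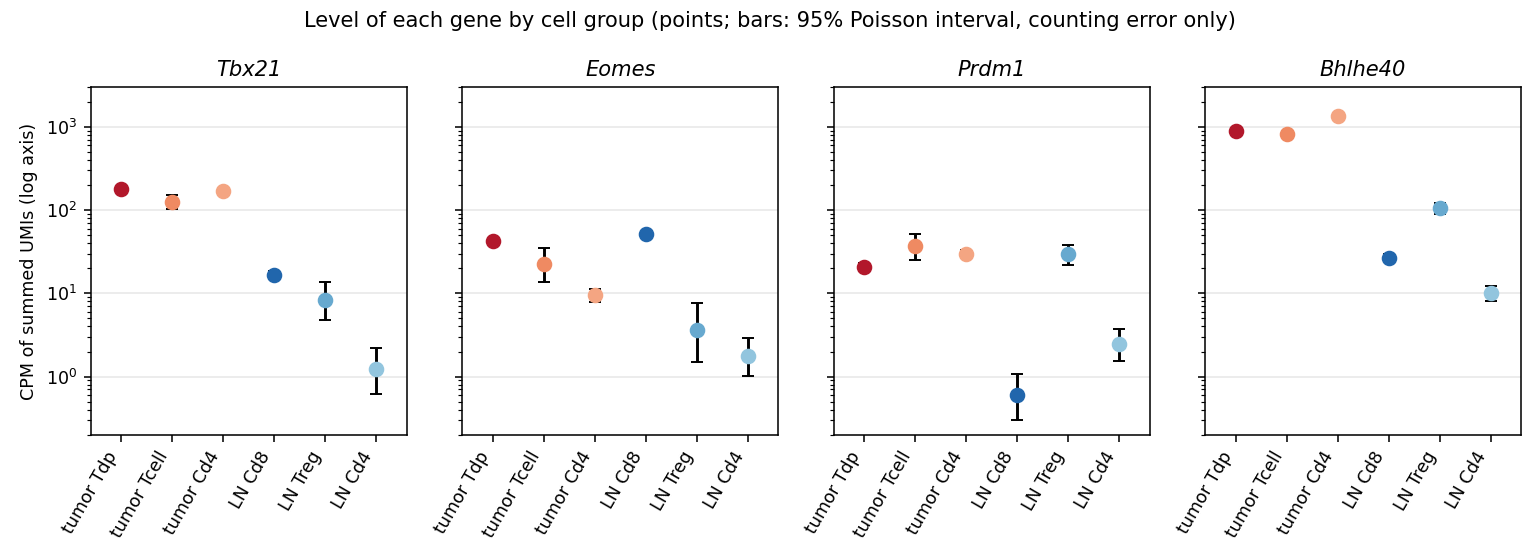
Level of Tbx21, Eomes, Prdm1 and Bhlhe40 in 6 cell groups, as CPM of summed UMIs on a log axis; LN is lymph node, points are group values and bars are exact 95% Poisson intervals. Tbx21 and Bhlhe40 sit high in the 3 tumor groups, Eomes sits at 42.4 CPM in tumor Tdp and 51.8 CPM in lymph node Cd8 cells, and Prdm1 is lowest in lymph node Cd8 cells at 0.607 CPM.

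By label, Eomes was highest in the groups with the most CD8 transcripts, lymph node Cd8 and tumor Tdp cells. It stood at 42.4 CPM (39.4 to 45.5) in tumor Tdp, 22.5 (13.6 to 35.2) in tumor Tcell and 9.45 (7.91 to 11.2) in tumor Cd4 cells. In lymph node it stood at 51.8 CPM (48.5 to 55.2) in Cd8, 3.68 (1.48 to 7.58) in Treg and 1.78 (1.02 to 2.89) in Cd4 cells. Lymph node Cd8 cells were thus highest, tumor Tdp cells next, and only the lowest pair, lymph node Treg and Cd4, did not differ beyond counting error. An Eomes UMI was found in 21.4% of tumor Tdp cells (19.8% to 22.9%) and 21.9% of lymph node Cd8 cells (20.4% to 23.5%), against 3.43% of tumor Cd4 and 0.694% of lymph node Cd4 cells. At 2000 UMIs per cell the shares were 7.13%, 8.47%, 1.86% and 0.221%.

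Prdm1 was found in the tumor groups and in lymph node Treg cells. It stood at 20.7 CPM (18.6 to 22.9) in tumor Tdp, 36.8 (25.0 to 52.2) in tumor Tcell and 30.1 (27.3 to 33.1) in tumor Cd4 cells. In lymph node it stood at 29.4 CPM (22.2 to 38.2) in Treg, 0.607 (0.303 to 1.09) in Cd8 and 2.45 (1.53 to 3.70) in Cd4 cells. Tumor Tcell, tumor Cd4 and lymph node Treg cells formed the top of the order and neighbours among them did not differ beyond counting error, while tumor Tdp cells came next. A Prdm1 UMI was found in 11.7% of tumor Tdp, 14.5% of tumor Cd4 and 11.5% of lymph node Treg cells, against 1.17% of lymph node Cd4 cells. Thinning gave shares of 4.32%, 5.67%, 5.50% and 0.387%.

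Bhlhe40 was found in nearly every tumor Tdp and tumor Cd4 cell. It stood at 893 CPM (879 to 906) in tumor Tdp, 829 (769 to 893) in tumor Tcell and 1347 (1328 to 1366) in tumor Cd4 cells. In lymph node it stood at 105 CPM (91.0 to 121) in Treg, 26.9 (24.6 to 29.4) in Cd8 and 10.01 in Cd4 cells. Every neighbour in this order differed beyond counting error except tumor Tdp and tumor Tcell. A UMI was found in 95.1% of tumor Tdp and 97.2% of tumor Cd4 cells, against 2.56% of lymph node Cd4 cells, and at 2000 UMIs per cell in 76.9%, 86.1% and 1.38%. In the shallower tumor Tcell group it was found in 71.2% of cells, and in 68.7% at 2000 UMIs per cell. The median tumor Tdp cell held 5 Bhlhe40 UMIs (middle range 3 to 8, at most 35) and the median tumor Cd4 cell 7 (4 to 11, at most 41).

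**Figure D2:**
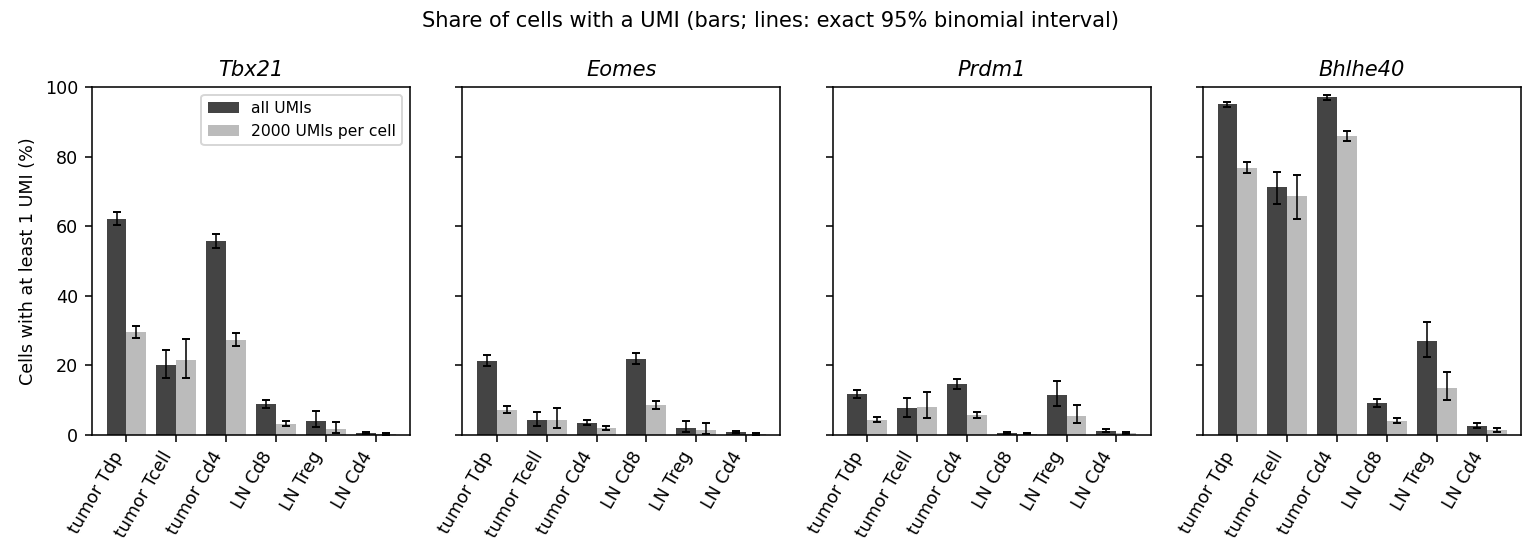
Share of cells with at least 1 UMI of each gene in 6 cell groups (LN, lymph node), on all UMIs (dark bars) and after thinning every cell to 2000 UMIs (light bars); lines are exact 95% binomial intervals. Thinning lowers Tbx21 in tumor Tdp cells to 29.4%, against 62.2% on all UMIs, and leaves Bhlhe40 at 76.9%.

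The 19 cells that carry the Treg label in tumor held 12 Tbx21 UMIs, 1 Eomes UMI, 6 Prdm1 UMIs and 16 Bhlhe40 UMIs. Bhlhe40 there came to 180 CPM (103 to 293), with a UMI in 42.1% of those cells. Of the 6 lymph node cells labelled Tdp, 4 held a Tbx21 UMI and 6 a Bhlhe40 UMI. These groups were too small for any comparison.

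Within tumor, Eomes differed between the Tdp and Cd4 labels also among cells of the same coreceptor UMIs. Among Tdp-labelled cells Eomes stood at 41.8 CPM in the 2028 cells with UMIs of Cd4 and of Cd8a or Cd8b1, 45.6 CPM in the 554 with a CD8 gene only, and 41.4 CPM in the 86 with Cd4 only. Among Cd4-labelled cells it stood at 12.4 CPM (7.47 to 19.4) in the 222 cells with UMIs of both coreceptors and 8.29 CPM in the 1846 with Cd4 only. In a comparison of Tdp-labelled double positive with CD8 single positive cells, none of the 4 genes was called, where 0.0438% of 4569 genes were. The ratios there lay between 0.916 for Eomes (0.764 to 1.10) and 1.13 for Prdm1 (0.858 to 1.52). Cells with an Mki67 or Top2a UMI, taken as cycling, stood close to the others: Eomes came to 44.8 CPM in cycling and 41.8 CPM in other Tdp cells, and Bhlhe40 to 1339 CPM in cycling and 1349 CPM in other Cd4 cells.

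Tumor Tdp cells were set against tumor Cd4 cells of the same library, a group with far fewer CD8 transcripts. Eomes was 4.48-fold higher in Tdp cells (3.72 to 5.43), and 1 of the 4 genes was called, where 3.49% of 4820 genes were. A gene was called at 2-fold or more on CPM plus 1, with 20 CPM or more in either group, and 33.9% of all called genes were higher in Tdp cells, or 45.1% with TMM scaling. Tbx21 had a ratio of 1.05, with an interval of 0.993 to 1.10 that holds 1. Prdm1 was lower, at a ratio of 0.687 (0.596 to 0.791), and so was Bhlhe40, at 0.663 (0.649 to 0.677), neither past 2-fold. Natural killer cell markers summed to 1.81 CPM in Tdp cells against 4.65 CPM in Cd4 cells.

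The 9 gene lists set beside the members cover the pathways they are known for; here and below they count the genes with 20 CPM or more in either group. Of 12 cytotoxic genes linked to Eomes and T-bet, 6 were called higher in Tdp cells and none lower, with a median log2 ratio of 1.11 beside -0.11 over all genes tested. Gzma, a granule protease, stood at 112 CPM in Tdp cells against 4.08 CPM in Cd4 cells, and Prf1, the pore former perforin, at 209 and 23.6 CPM in the same order. Gzmb stood at 3056 CPM in Tdp against 490 CPM in Cd4 cells, and Gzmk at 79.6 against 12.0 CPM. Klrk1 and Klre1, lectin receptors shared with natural killer cells, were the other genes called. Il2rb, a receptor chain for interleukin 2 and 15, was not called, at 475 CPM in Tdp cells against 432 CPM in Cd4 cells.

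The type 1 list, linked to T-bet, was nearly level. Of 13 genes 1 was called, Ccl5, a chemokine that stood at 19650 CPM in Tdp against 2048 CPM in Cd4 cells, and the list's median was 0.10. Ifng, the signature cytokine of type 1 cells, stood at 284 CPM in Tdp cells against 347 CPM in Cd4 cells, and Cxcr6 at 327 and 306 CPM. Il12rb2, a chain of the interleukin 12 receptor, was lower without reaching 2-fold, at 80.8 CPM in Tdp cells against 156 CPM in Cd4 cells.

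Cytokine genes linked to Bhlhe40 were lower in Tdp cells. Of 6 genes 4 were called lower and none higher, with a median of -2.14. Csf2, which encodes GM-CSF, stood at 1.64 CPM in Tdp cells against 29.1 CPM in Cd4 cells. Il21 stood at 3.18 against 32.9 CPM, Lta at 3.18 against 28.0 CPM and Csf1 at 102 against 290 CPM. Tnf, at 141 against 225 CPM, was not called.

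Genes linked to Blimp1 showed 1 call. Of 7 coinhibitory genes Cd160 was called, at 94.7 CPM in Tdp cells against 11.7 CPM in Cd4 cells, with a list median log2 ratio of 0.42, while Pdcd1 stood at 279 and 196 CPM and Lag3 at 741 and 701 CPM. Of 10 genes that Blimp1 represses, 2 reached 20 CPM in either tumor group and none was called. Under that minimum, Tcf7 stood at 2.03 CPM in Tdp cells against 16.2 CPM in Cd4 cells, and Ccr7 at 0.603 against 15.4 CPM. Among 17 other effector factors, Ikzf3 (147 CPM in Tdp, 52.8 CPM in Cd4) and Irf8 (68.8 and 30.8 CPM) were called higher. Maf (20.7 and 89.9 CPM), Tox (29.0 and 76.5 CPM) and Hif1a (120 and 331 CPM) were called lower.

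The 406 tumor Tcell cells, much shallower than the others, were set against the same Cd4 cells as the comparison above. Eomes was 2.38-fold higher (1.39 to 3.87), on 19 UMIs, and was the only 1 of the 4 called, where 6.94% of 5030 genes were and 16.0% of the called genes were higher (26.8% with TMM). Of the other members Tbx21 had a ratio of 0.732 (0.597 to 0.889), Prdm1 1.22 (0.820 to 1.76) and Bhlhe40 0.616 (0.570 to 0.664). Transcripts of CD8 moved with Eomes here: Cd8a stood at 297 CPM in Tcell cells, with a UMI in 31.5% of them, against 17.5 CPM in Cd4 cells, and Cd8b1 at 477 against 41.2 CPM. The median mitochondrial share was 3.1% of UMIs in Tcell cells and 2.03% in Cd4 cells. The part of these differences in the ratios was not tested. The Eomes call was lost when cells were weighted equally or 10 was added to the CPM. Of 12 cytotoxic genes 5 were called higher, and of 6 cytokine genes linked to Bhlhe40 3 were called lower.

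Tumor Cd4 cells were compared with lymph node Cd4 cells, which differ in tissue, in library and in origin. Bhlhe40 was 135-fold higher in tumor (109 to 167), Tbx21 140-fold (78.4 to 282) and Prdm1 12.3-fold (8.01 to 19.8), so 3 of the 4 genes were called, where 21.0% of 5134 genes were. Of those called genes 70.4% were higher in tumor, 61.8% with TMM and 44.5% with receptor, mitochondrial and ribosomal protein genes left out of the total, which moved the median gene by -0.37. Eomes had a ratio of 5.31 (3.15 to 9.57) with fewer than 20 CPM in both groups. Of 12 type 1 genes 11 were called higher, with a median of 4.55 beside 0.20 over all genes tested, among them Ifng at 347 against 1.22 CPM. Of 6 genes repressed by Blimp1, 5 were called lower in tumor and none higher. Ccr7, a homing receptor for chemokines, stood at 15.4 CPM in tumor and 601 CPM in lymph node, and Tcf7, a factor of naive and progenitor cells, at 16.2 and 368 CPM. All 6 coinhibitory genes were called higher. Of 6 cytokine genes linked to Bhlhe40, 5 were called higher, among them Csf2 at 29.1 against 0.556 CPM. No lymph node Cd4 cell held an Il21 UMI (0 of 1873 cells, which allows a share of up to 0.160%, taking 3 cells as the limit for a count of 0 here and below), against 32.9 CPM in tumor Cd4 cells.

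Tumor Tdp cells were compared with lymph node Cd8 cells, the other large group with CD8 transcripts. Bhlhe40 was 33.1-fold higher (30.3 to 36.3), Prdm1 34.0-fold (18.8 to 68.8) and Tbx21 10.7-fold (9.53 to 12.1), while Eomes had a ratio of 0.818 (0.743 to 0.901). Thus 3 of the 4 were called, where 16.5% of 4837 genes were. Of those called genes 69.0% were higher in Tdp cells, 63.8% with TMM and 39.6% with the smaller total, which again moved the median gene by -0.37. The signs of the 4 ratios were kept under every alternative tried. Of 14 cytotoxic genes 11 were called higher and 1 lower, with a median of 2.68 beside 0.17 over all genes. Gzmb stood at 3056 CPM in tumor Tdp and 5.79 CPM in lymph node Cd8 cells, while Cd226, an activating receptor, stood at 17.7 and 50.2 CPM. All 6 genes repressed by Blimp1 were called lower, among them Ccr7 at 0.603 against 412 CPM. All 7 coinhibitory genes were called higher, as were 9 of 13 type 1 genes. Among 12 receptor genes upstream of these factors, 6 were called higher, Il12rb2 at 80.8 against 2.87 CPM for example, and 3 lower; 1 of the 3, Ifngr2, is listed at 0 throughout the tumor library, as are many genes.

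**Figure D3:**
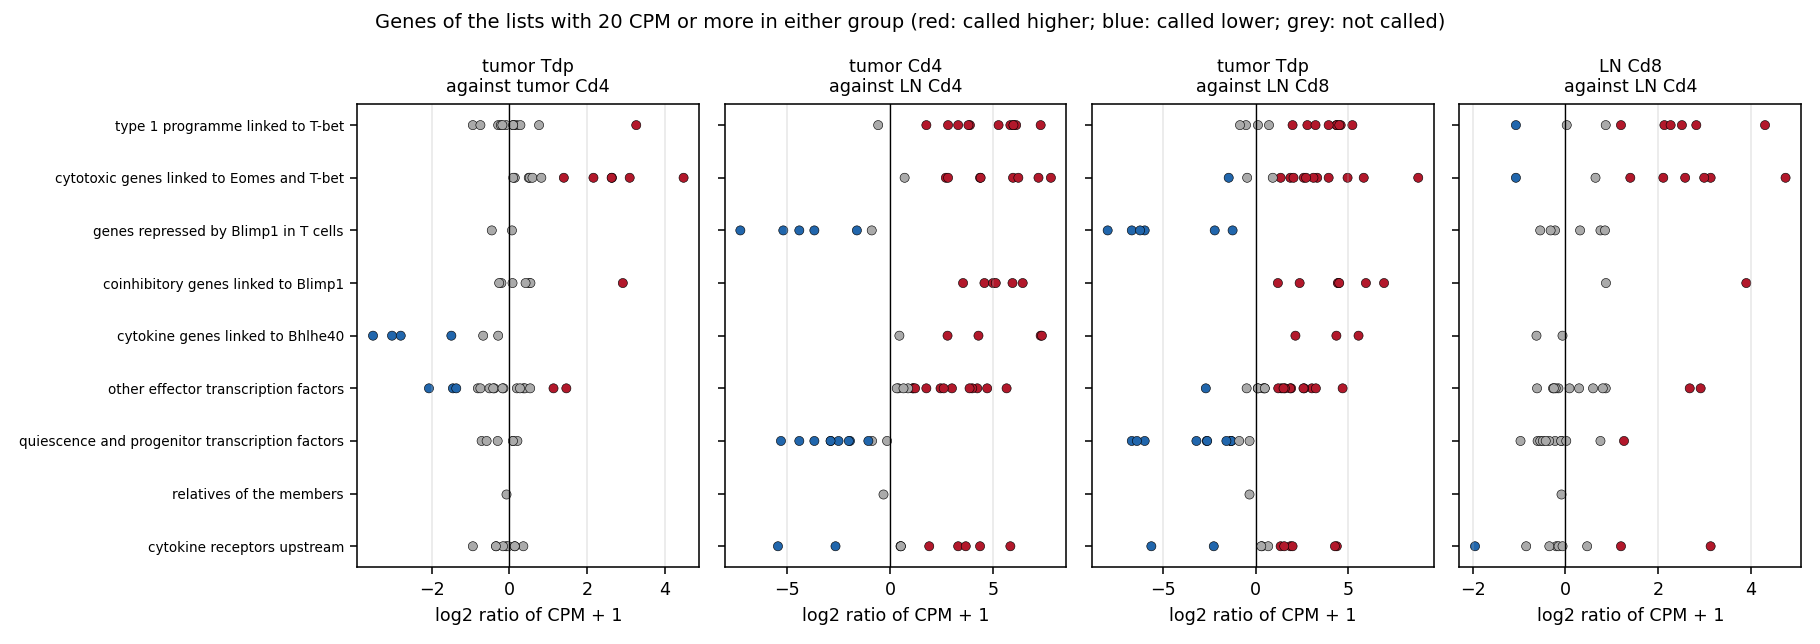
Log2 ratio of CPM plus 1 for the genes of 9 lists in 4 comparisons (LN, lymph node), with the group named first on top of the ratio; each point is a gene with 20 CPM or more in either group, and genes at 0 UMIs in 1 group are left out. In tumor Tdp against tumor Cd4 cells, 6 cytotoxic genes lie to the right as called higher and 4 cytokine genes to the left as called lower.

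Within lymph node, Cd8 cells were set against Cd4 cells. Eomes was 29.1-fold higher in Cd8 cells (17.8 to 51.1) and Bhlhe40 2.69-fold higher (2.15 to 3.41), so 2 of the 4 were called, where 3.55% of 4530 genes were. Tbx21 (13.7-fold, 7.56 to 27.8) and Prdm1 (ratio 0.248, 0.109 to 0.534) stayed under 20 CPM in both groups. Of 8 cytotoxic genes 6 were called higher, among them Nkg7, a granule protein, at 858 CPM in Cd8 and 31.1 CPM in Cd4 cells, and Il2rb at 185 and 20.2 CPM. Fasl was called lower, at 11.1 and 24.3 CPM. Of 9 type 1 genes 6 were called higher and 1 lower, led by Cxcr3 at 40.6 CPM in Cd8 and 1.11 CPM in Cd4 cells.

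Lymph node Treg cells were set against the same Cd4 cells. Prdm1 was 12.0-fold higher (7.23 to 20.7) and Bhlhe40 10.5-fold (8.15 to 13.6), 2 of 4 called, where 11.9% of 5185 genes were. Of the genes called 88.2% were higher in Treg cells, 65.2% with TMM, which moved the median gene by -0.36. Tbx21 had a ratio of 6.87 (2.99 to 16.4) and Eomes of 2.07 (0.719 to 5.31), both under 20 CPM. The part of the Treg-labelled cells with Cd8a UMIs in these ratios was not tested. All 6 coinhibitory genes linked to Blimp1 were called higher, with a median of 3.90 beside 0.31 over all genes. Ctla4 stood at 845 CPM in Treg and 43.0 CPM in Cd4 cells, Tigit at 253 and 13.3 CPM, and Il10 at 26.8 and 1.00 CPM. Of 7 genes repressed by Blimp1, Tcf7 was called lower, at 131 and 368 CPM, and Ccr6 and Myc higher. Of 15 other effector factors 9 were called higher, led by Ikzf2, known as Helios, at 683 and 4.45 CPM.

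Relatives of the members were scarce. Prdm2, another zinc finger factor of the PRDM family, stood between 20.2 and 33.6 CPM in the 6 groups. Zfp683, which encodes Hobit, a relative of Blimp1 in tissue-resident lymphocytes, stood at 10.2 CPM in tumor Tdp and 7.23 CPM in tumor Cd4 cells, against 1.16 CPM in lymph node Cd8 and 0.111 CPM in lymph node Cd4 cells. Within tumor Prdm2 was not called, and Zfp683 stayed under 20 CPM in each group, so it could not be called.

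Genes with the most similar pattern were ranked by the root mean square difference of centred log2(CPM + 1) over the 6 groups, among 5496 genes; the groups share 2 libraries. Nearest to Tbx21 were Cxcr6 (0.17), Il18rap (0.35), Ctla2a (0.40), Pik3ap1 (0.42) and Plek (0.53). Cxcr6, a chemokine receptor, stood at 327, 199 and 306 CPM in tumor Tdp, Tcell and Cd4 cells, and at 33.5, 13.7 and 3.89 CPM in lymph node Cd8, Treg and Cd4 cells. Nearest to Bhlhe40 were Anxa1 (0.25), Rgs16 (0.42), Ifng (0.42), Litaf (0.49) and Ifitm2 (0.50). Nearest to Prdm1 were Cish (0.46), a brake on cytokine signals, Raph1 (0.46), Rhoc (0.50), Lamc1 (0.51) and Irf5 (0.53), and Cish shared its high level in lymph node Treg cells, 168 CPM. Eomes had the least close neighbours: Cd160 (0.59), Nedd4 (0.60), Tm6sf1 (0.63), Ifitm10 (0.67) and Bend4 (0.68). Cd160 stood at 94.7 CPM in tumor Tdp and 40.3 CPM in lymph node Cd8 cells, against 11.7 and 1.78 CPM in the Cd4 cells of each tissue.

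Both T-box genes were then read cell by cell. Where cells were thinned to 2000 UMIs, here and below, cells with and without a gene were drawn again from the thinned counts. Of 2693 tumor Tdp cells, 376 (14.0%) held UMIs of Tbx21 and Eomes, 199 of Eomes only, 1298 of Tbx21 only and 820 of neither. Of 2451 tumor Cd4 cells 43 held both, 41 Eomes only, 1325 Tbx21 only and 1042 neither. Of 2788 lymph node Cd8 cells 89 held both, 522 Eomes only, 156 Tbx21 only and 2021 neither. Tbx21 was found in 65.4% of tumor Tdp cells with an Eomes UMI (61.3% to 69.3%) and 61.3% of those without one (59.2% to 63.4%), and at 2000 UMIs per cell in 24.2% and 29.8%. In lymph node Cd8 cells it was found in 14.6% of cells with an Eomes UMI (11.9% to 17.6%) and 7.17% of cells without one, and at 2000 UMIs per cell in 5.98% and 2.85%. In lymph node Treg cells the pair was found in 0 of 321 cells, which allows a share of up to 0.935%, and in lymph node Cd4 cells in 3.

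**Figure D4:**
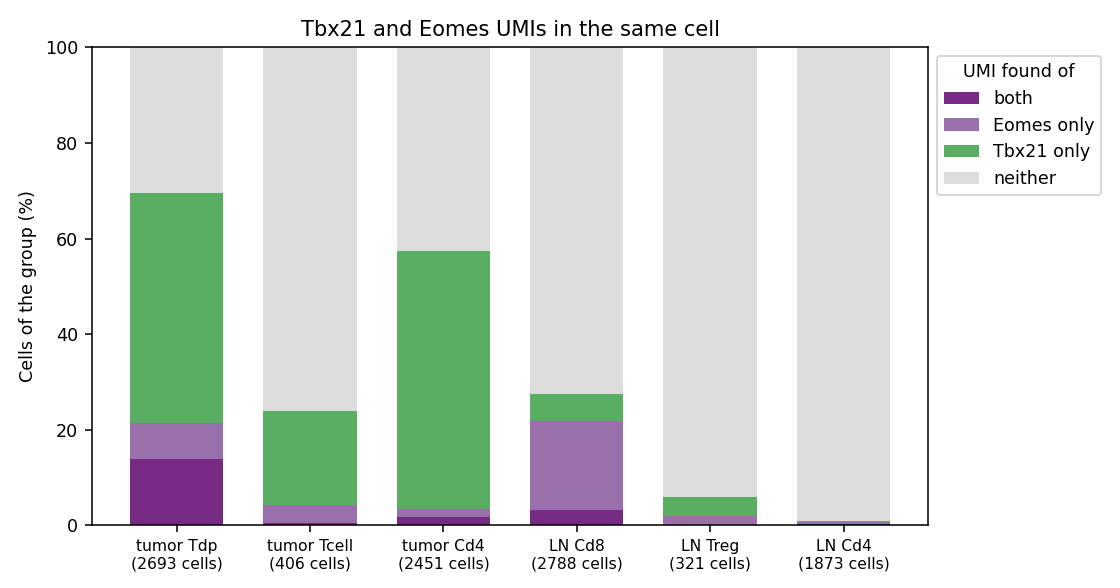
Share of cells of 6 groups (LN, lymph node) with UMIs of both Tbx21 and Eomes, of Eomes only, of Tbx21 only or of neither, as stacked bars that add to 100%. Cells with Tbx21 only make up 48.2% of tumor Tdp cells, and Eomes without Tbx21 is the commoner state in lymph node Cd8 cells.

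In tumor no difference in Eomes beyond counting error was found between cells with and without Tbx21. Among Tdp cells an Eomes UMI was found in 22.5% of cells with a Tbx21 UMI (20.5% to 24.5%) and 19.5% of cells without one (17.1% to 22.1%), a difference of 2.93 percentage points (-0.27 to 6.03, Newcombe interval). Cells with a Tbx21 UMI were deeper, with a median of 6937 UMIs, against 6047 in cells without one. At 2000 UMIs per cell the shares were 5.87% with and 7.66% without Tbx21, a difference of -1.80 points (-3.73 to 0.38). In the shallowest to the deepest of 4 equal classes of cells by UMIs, Eomes was found in 10.6%, 20.2%, 24.3% and 30.4% of cells with Tbx21. In cells without Tbx21 it was found in 12.4%, 18.5%, 24.0% and 29.2%. The share with Eomes was higher in deeper cells of both kinds, and within a depth class the intervals of both kinds overlapped. No order by the number of Tbx21 UMIs was seen: Eomes stood at 41.1, 47.2, 36.4 and 42.8 CPM in Tdp cells with 0, 1, 2 and 3 or more. Among tumor Cd4 cells the shares were 3.14% with and 3.79% without Tbx21, a difference of -0.64 points (-2.18 to 0.81). The level of Eomes in these Cd4 cells was highest in the shallowest class, at 22.1 CPM with and 24.4 CPM without Tbx21. In the deeper classes it lay between 4.82 and 12.3 CPM.

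In lymph node Cd8 cells both genes were found together more often. An Eomes UMI was found in 36.3% of cells with a Tbx21 UMI (30.3% to 42.7%) and 20.5% of cells without one (19.0% to 22.1%), a difference of 15.8 points (9.81 to 22.2). Without the barcodes shared by both libraries it was 15.5 points. Cells with Tbx21 were again deeper, with a median of 7221 UMIs, against 6229. At 2000 UMIs per cell 86 cells held a Tbx21 UMI, against 245 on all UMIs. The shares after thinning were 16.3% and 8.22%, a difference of 8.06 points (1.64 to 17.3). Through the 4 depth classes the share with Eomes was 22.5%, 39.5%, 37.7% and 39.8% in cells with Tbx21. In cells without Tbx21 it was 9.59%, 16.9%, 21.9% and 35.1%, so the gap was narrowest in the deepest cells. The intervals of both kinds overlapped in the shallowest and in the deepest class and lay apart in the classes between. When 2 Tbx21 UMIs were required, which 46 cells held, the difference was 4.24 points with an interval that spans 0 (-6.36 to 18.5). Eomes stood at 48.8, 83.6, 71.7 and 12.1 CPM in cells with 0, 1, 2 and 3 or more Tbx21 UMIs, the last on 10 cells.

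**Figure D5:**
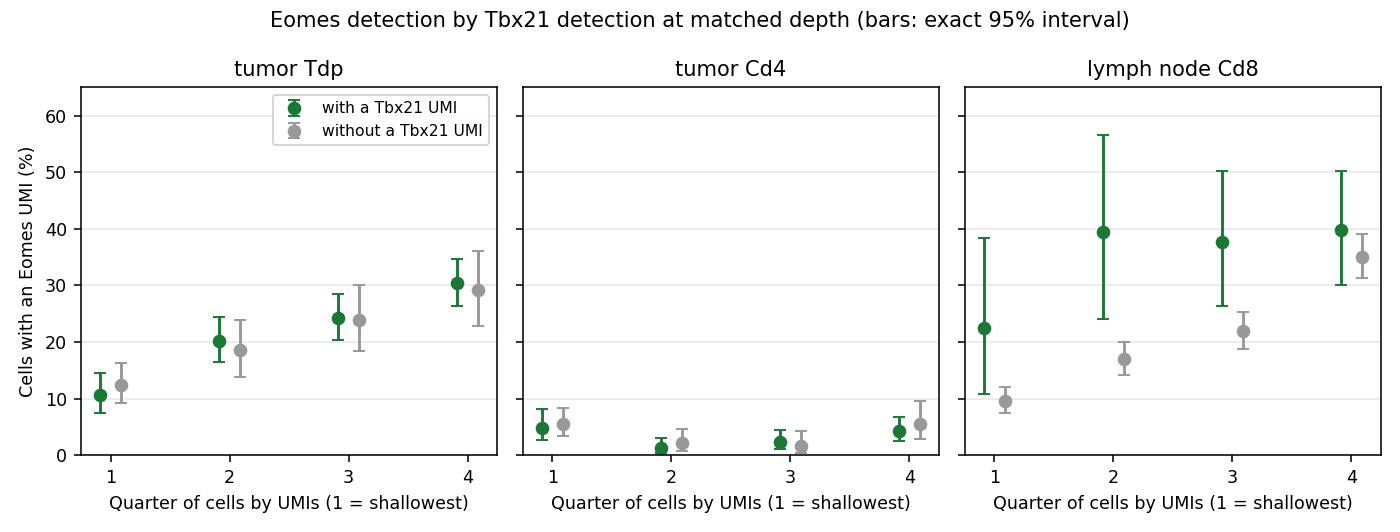
Share of cells with an Eomes UMI among cells with (green) and without (grey) a Tbx21 UMI, in 4 equal classes of cells by UMIs in tumor Tdp, tumor Cd4 and lymph node Cd8 cells; bars are exact 95% binomial intervals. In tumor Tdp cells both colours climb together to 30.4% and 29.2%, while in lymph node Cd8 cells the green points lie above the grey ones in each class.

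No gene was called between Tdp cells with both T-box genes and Tdp cells with Tbx21 alone. With 376 against 1298 cells, 0.00% of 4591 genes were called, and so neither Prdm1 (ratio 1.10, 0.819 to 1.47) nor Bhlhe40 (1.01, 0.966 to 1.05) was. After thinning to 2000 UMIs per cell, which leaves 46 cells with both, 1345 genes passed the same call. In so few UMIs a gene reaches 20 CPM on very few counts, and the call takes no account of counting error. These calls are therefore not read as differences. In Tdp cells with Eomes only against cells with neither, 0.170% of 4701 genes were called, and neither Prdm1 (1.11, 0.711 to 1.69) nor Bhlhe40 (1.05, 0.980 to 1.12). In Tdp cells with Tbx21 only against cells with neither, 0.0219% of 4567 were, and neither Prdm1 (1.06, 0.820 to 1.37) nor Bhlhe40 (1.12, 1.08 to 1.16). The cytotoxic list had, between cells with both and cells with Tbx21 only, a median of 0.06, with Prf1 at 242 CPM in cells with both and 196 CPM in cells with Tbx21 only. In Cd4 cells with Tbx21 only against cells with neither, 0.0208% of 4810 genes were called, the chemokine Ccl3 alone, at 253 against 119 CPM (187 CPM without 1 cell, which ends the call), and neither Prdm1 (1.04, 0.848 to 1.28) nor Bhlhe40 (1.05, 1.02 to 1.08).

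Among lymph node Cd8 cells with an Eomes UMI, those that also held Tbx21 had higher levels of some cytotoxic genes. With 89 against 522 cells, 1.85% of 4494 genes were called, while Bhlhe40 and Prdm1 stayed under 20 CPM. Of 14 cytotoxic genes 7 were called higher and none lower, with a median of 0.90. Without the 1 cell with the most UMIs of each gene 4 of these calls were left, those of Gzma, Klrk1 and Crtam being lost. Gzmb stood at 45.7 CPM with Tbx21 and 9.07 CPM without, from UMIs in 12.4% (6.33% to 21.0%) and 3.45% of cells. Klrc1, an inhibitory lectin receptor, was found in 16.9% and 6.90% of cells and Fasl in 19.1% and 7.85%. Single cells weighed heavily on other genes of this contrast: Gzma stood at 90.0 CPM against 7.52 CPM, but 1 cell held 54 of its 61 UMIs, and without that cell the level was 10.4 CPM. Xcl1, a chemokine of CD8 and natural killer cells, stood at 323 CPM against 42.5 CPM, and at 64.7 CPM without 1 cell. The intervals of Poisson counts do not cover such differences between cells.

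Read together, the 4 genes formed a few common patterns. In tumor Tdp cells UMIs of Tbx21 and Bhlhe40 without the other members were the commonest pattern, in 40.7% of cells, followed by Bhlhe40 alone in 25.7% and by Tbx21, Eomes and Bhlhe40 in 11.7%. All 4 were found in 57 Tdp cells (2.12%) and none in 48 (1.78%). In tumor Cd4 cells the commonest were Tbx21 with Bhlhe40 in 44.6%, Bhlhe40 alone in 35.9% and Tbx21, Prdm1 and Bhlhe40 in 8.08%. Lymph node Cd8 cells held none of the 4 in 65.6%, Eomes alone in 17.1% and Tbx21 alone in 4.88%. Tbx21 and Prdm1 were found together in 0 of those 2788 cells, which allows a share of up to 0.108%.

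Prdm1 was next set beside each T-box gene in tumor. In tumor Tdp cells Prdm1 was found in 15.0% of cells with and 10.9% of cells without an Eomes UMI, and at 2000 UMIs per cell in 4.74% and 4.29%. In tumor Cd4 cells it was found in 15.6% of cells with and 13.2% of cells without Tbx21, and at 2000 UMIs in 5.89% and 5.58%. The intervals overlapped in each of these pairs, on all UMIs and after thinning. For Prdm1 by Eomes in Tdp cells they overlapped only narrowly on all UMIs, at 12.1% to 18.1% with and 9.57% to 12.3% without Eomes. No interval of the difference was computed for these pairs, so the overlap does not show that the shares are equal.

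Tumor Cd4 cells with a Prdm1 UMI (356) were compared with those without one (2095), at medians of 5734 and 5494 UMIs. Of 4891 genes 0.102% were called, all higher, and no other member was: Tbx21 had a ratio of 1.09 (0.973 to 1.21) and Bhlhe40 of 1.07 (1.03 to 1.11). Ccl4, a chemokine, was found in 51.7% (46.4% to 57.0%) of cells with Prdm1 and 40.4% (38.3% to 42.6%) of cells without it. Ccl3 was found in 28.7% and 17.8%, and Gzmk in 5.62% and 2.72%. Of these 3 and Il10, the 4 genes called from the lists, 1 was still called without its top cell, Gzmk. Il10 was found in 4.78% (2.81% to 7.54%) and 1.86% (1.33% to 2.54%); its level of 38.8 against 7.95 CPM was 15.5 CPM without 1 cell that held 50 UMIs. In tumor Tdp cells with a Prdm1 UMI, Eomes had a ratio of 1.25 (1.02 to 1.52), not called, where 0.0435% of genes were.

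Tumor Cd4 cells without a Bhlhe40 UMI were few, 69 against 2382 with one, and shallower, with medians of 5574.5 UMIs with and 3788 without. Of 5191 genes 7.34% were called, and of the members Eomes, lower with Bhlhe40 at 8.98 CPM against 33.7 CPM, on 9 UMIs in 7 of the 69 cells. At 2000 UMIs per cell both genes were scored again on the thinned counts, so 337 cells, not these 69, were without a Bhlhe40 UMI. Eomes was found in 4.15% (2.29% to 6.87%) of those 337 Cd4 cells and in 1.49% (1.01% to 2.11%) of the 2081 with Bhlhe40. Csf2 was found in 4.79% of cells with Bhlhe40 and in 1 of the 69 without it. Il10, the cytokine that Bhlhe40 is known to restrain, stood at 9.05 CPM with and 198 CPM without Bhlhe40, but 50 of the 53 UMIs without it came from 1 cell, and the level was 11.5 CPM without that cell. The same held for Ccl3, at 187 against 2149 CPM, or 202 CPM without 1 cell. Of the 12 list genes called in this split, 1 was higher and 11 lower with Bhlhe40, and 1 of each was left without the top cell of the gene. Maf, a factor linked to Il10, stood at 88.1 against 180 CPM, with UMIs in 33.2% (31.4% to 35.2%) and 37.7% (26.3% to 50.2%) of cells.

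In tumor Tdp cells the same split set 2561 cells with a Bhlhe40 UMI against 132 without one, at medians of 6717 and 5144.5 UMIs, and 0.962% of 4783 genes were called, none of the members among them. Tbx21 stood at 181 CPM with and 145 CPM without Bhlhe40 (1.25, 1.02 to 1.54), Eomes at 42.5 and 39.5 CPM (1.07, 0.732 to 1.64) and Prdm1 at 20.5 and 24.9 CPM (0.823, 0.507 to 1.43).

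Splits of tumor cells by single effector genes, which share cells with the comparisons above, called none of the 4 genes. In Cd4 cells with a Gzmb UMI, where 0.702% of genes were called, Eomes stood at 13.6 CPM against 5.48 CPM without Gzmb (2.48-fold, 1.69 to 3.70, under 20 CPM), and Prdm1 at 36.1 against 24.3 CPM (1.48-fold, 1.22 to 1.81). Tbx21 stood at 171 and 173 CPM there. In Cd4 cells with an Il21 UMI (0.286% called) Prdm1 stood at 43.3 against 28.5 CPM (1.52-fold, 1.14 to 1.99). In Cd4 cells with a Ccr8 UMI (0.103% called) Eomes stood at 3.07 against 11.7 CPM (ratio 0.263, 0.128 to 0.488), and in those with a Tcf7 UMI (1.03% called) at 2.07 CPM, on 2 UMIs, against 10.0 CPM. With fewer than 20 CPM on both sides of the Gzmb, Ccr8 and Tcf7 splits, Eomes could not be called there whatever its ratio. Depth on each side of the splits by single genes is not given here, and its part in the ratios was not tested. Over these 4 splits of Cd4 cells Eomes had the widest range of ratios, 0.207 to 2.48, and Bhlhe40 the narrowest, 0.902 to 1.15. Eomes was also the scarcest of the 4 genes in tumor Cd4 cells, at 9.45 CPM, and Bhlhe40 the most abundant, at 1347 CPM. The low end for Eomes rests on 2 UMIs, and the part of counting error in this order was not tested. In Tdp cells with a Gzma UMI (0.192% called) Prdm1 stood at 27.7 against 19.8 CPM (1.40-fold, 1.03 to 1.87) and Eomes at 47.7 against 41.7 CPM (1.14, 0.910 to 1.42). In Tdp cells split by Havcr2 (0.0659% called) or Itga1 (0.0434% called) the ratios of the 4 genes lay between 0.877 and 1.20.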

How the data were processed

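Gene expression was measured in 2 RNA libraries, 1 per tissue, and analysed here for 4 genes chosen by name. The deposited gene table, which spans both libraries, gives UMI counts, unscaled, for 14721 genes in 10558 cells; it was checked to hold whole numbers of 0 or more. A further deposited table annotates the cells with other values: library, the authors' cell label and receptor. Cell Ranger 3.1.0 and mm10 are named by the submitters' processing notes, and per the labels' protocols 8100 cells entered library preparation. Counts were summed per label and scaled to CPM with numpy 2.4.6 and scipy 1.17.1. With 1 library per tissue no test between samples was possible and no p-value was computed; ratios have exact conditional Poisson intervals, without the 1 added for calls, and shares exact Clopper-Pearson intervals, all at 95%; for a count of 0 the limit given is 3 cells of the total. Receptor variable, diversity and joining segments and Cd4, Cd8a and Cd8b1 were left out of the counts of genes called. Alternatives were TMM scaling (edgeR 4.0.16), another total, the mean of cells, thinning to 2000 UMIs, other minimums, pseudocounts and folds, and leaving out cells by receptor, markers, depth or cycling. No doublet caller was run; cells over the 95th percentile of UMIs were left out as an alternative. Leaving out shared barcodes, or the 1 cell with the most UMIs of a gene, was added after the data were seen. The scripts were tested on simulated data. The 4 genes, the 9 lists (110 genes, 105 in the table) and the rules were chosen with earlier results of these data known. Named were the members, the 5 genes most like each, and per list the genes with the largest ratios and some not called. Some genes of the lists are not reported here.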

Additional observations from a re-analysis of the deposited data

How the results depend on the processing

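Signs of the 24 member ratios of the 6 label comparisons were kept under every alternative. Counts of genes called in Tdp against Cd4 cells (168) came to 533 with no CPM minimum, 92 with a minimum of 50, 110 with a pseudocount of 10 and 449 at 1.5-fold; members called (1) came to 0 with the minimum of 50 and 2 at 1.5-fold. For Tcell against Cd4 cells (349) thinning gave 678 and the same 4 settings 1556, 157, 143 and 1277; members called (1) came to 0 with the mean of cells, the minimum of 50 or the pseudocount of 10, and 2 at 1.5-fold. Tumor against lymph node Cd4 cells (1076) gave 2397 with no minimum, 618 with a minimum of 50 and 2052 at 1.5-fold, and Tdp against lymph node Cd8 cells (800) gave 1884, 464 and 1658. Lymph node Cd8 against Cd4 cells (161) gave 256 with the smaller total, 556, 71, 107 with the pseudocount of 10 and 398; members called (2) came to 4, 1 and 1 with no minimum, the minimum of 50 and the pseudocount of 10. Lymph node Treg against Cd4 cells (619) gave 1944, 328, 412 and 1523, with 1 member called at the minimum of 50. Tdp cells with both T-box genes against Tbx21 only (0 genes) gave 1345 after thinning, which leaves 46 cells with both. Differences in Eomes detection by Tbx21 came to -1.80 points in Tdp and 8.06 points in lymph node Cd8 cells after thinning, and to 4.24 points in lymph node Cd8 cells with 2 Tbx21 UMIs; the cause of these moves was not tested. The other 148 values of these kinds stayed within 1.5 times or within counting error. Classes from coreceptor UMIs could not be made for the Tcell group. No paired analysis was possible because each tissue has 1 RNA library and no test was made. Depth limits Eomes and Prdm1 most, since many cells held 1 UMI or none.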
